A study of Mus musculus with 6 samples.

Results

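The genes for the glycine receptor subunits and for gephyrin were examined in the striatum of Shank3-overexpressing mice. The set holds 6 of the 46078 genes in the deposited table, Glra1, Glra2, Glra3, Glra4, Glrb and Gphn, each found by its Ensembl identifier in the GENCODE M21 annotation of GRCm38. It was selected on the measured values of Glra2, which separated the Shank3 transgenic (TG) mice from the wild-type (WT) mice in these libraries, so the difference in Glra2 between the genotypes is given as a description without a test. The 5 other genes were included for belonging to the same family or complex. RNA-seq was performed on striatal tissue of 3 WT and 3 Shank3 TG male mice, aged 12 weeks and on a C57BL/6J background, with 1 library per mouse. The TG mice carry an EGFP-tagged Shank3 transgene, whose promoter is not given in the sources used here, in addition to the endogenous gene. No other allele, drug or treatment is named in the labels for either group, and the values do not tell transgene reads from endogenous ones.

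Glycine receptors are pentameric chloride channels of the Cys-loop family that open when glycine binds and are blocked by strychnine. The alpha subunits, encoded by Glra1 to Glra4, form the glycine site together with neighbouring subunits, and the beta subunit, encoded by Glrb, binds the scaffold protein gephyrin, which clusters the receptors under the inhibitory postsynaptic membrane. Glra1 is best known from the spinal cord and brainstem, whereas Glra2 is known as the alpha subunit of immature neurons and of tonic glycine currents in adult striatal neurons. Gephyrin, encoded by Gphn, also anchors many GABA-A receptors and, apart from the synapse, catalyses the last steps of molybdenum cofactor synthesis.

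The promoters of Glra2, Glrb and Gphn are shown because these are the 3 genes of the set whose values were higher in each TG mouse than in each WT mouse. The sequences run from 250 bases before to 50 bases after the start annotated by RefSeq on GRCm38.p6. They are written 5′ to 3′ on the strand of the gene, with each CpG dinucleotide in capitals. For Gphn the gene in GENCODE M21 begins at 78226379, ahead of the RefSeq start, so the window lies within that gene.
Glra2 (chrX:165327344-165327643, minus strand): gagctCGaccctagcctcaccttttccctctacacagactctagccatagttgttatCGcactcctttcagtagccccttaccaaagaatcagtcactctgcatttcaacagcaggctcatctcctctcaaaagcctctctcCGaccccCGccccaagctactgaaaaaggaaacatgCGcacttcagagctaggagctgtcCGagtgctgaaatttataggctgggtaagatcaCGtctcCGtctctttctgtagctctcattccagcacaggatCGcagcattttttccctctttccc
Glrb (chr3:80913611-80913910, minus strand): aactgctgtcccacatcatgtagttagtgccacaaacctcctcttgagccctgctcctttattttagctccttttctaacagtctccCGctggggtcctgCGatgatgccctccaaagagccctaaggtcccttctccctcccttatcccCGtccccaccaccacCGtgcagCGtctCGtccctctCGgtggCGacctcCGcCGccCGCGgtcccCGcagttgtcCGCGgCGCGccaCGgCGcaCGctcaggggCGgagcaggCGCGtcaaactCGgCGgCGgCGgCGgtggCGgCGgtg
Gphn (chr12:78226405-78226704, plus strand): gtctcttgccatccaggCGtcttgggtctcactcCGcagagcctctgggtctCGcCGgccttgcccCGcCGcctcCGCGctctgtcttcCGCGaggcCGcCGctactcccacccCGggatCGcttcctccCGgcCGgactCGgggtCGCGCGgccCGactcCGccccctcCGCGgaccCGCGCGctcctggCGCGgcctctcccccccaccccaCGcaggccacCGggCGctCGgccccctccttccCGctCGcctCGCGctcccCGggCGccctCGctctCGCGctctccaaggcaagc
The 3 promoters differed in base composition. That of Glra2 held 9 CpG dinucleotides at a GC content of 50.3%, that of Glrb 30 at 65.7%, and that of Gphn 42 at 77.0%. Among the 32851 RefSeq promoter windows of the same length, whose medians were 7 CpG dinucleotides and 52.7% GC, these CpG counts were above those of 54.2%, 88.3% and 97.0% of windows. The promoters of Glra3 and Glra4, the other genes of the set in the RefSeq table, held 8 and 3 CpG dinucleotides. Counted on both strands, the motif TATAAA was found once in the Glra2 window and in no other of the 5 windows, whereas 13.6% of all windows hold it. The motif GGGCGG, found in 35.7% of all windows, was present in the windows of Glra2, Glra3, Glrb and Gphn and not in that of Glra4.

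The values are read counts per gene scaled by the authors with a size factor for each library (DESeq2), called normalized read counts here. In each library they were whole multiples of the smallest value above 0, so the counts before scaling could be recovered, and 27689589 to 36647626 counts per mouse fell on genes. Shank3 had 29891, 28309 and 26044 normalized read counts in TG replicates 1, 2 and 3 and 13807, 12918 and 13865 in WT replicates 1, 2 and 3, which is higher in TG mice by 1.05 on the log2 scale (SE 0.06, limma adjusted P = 7.04e-05, SE being the standard error). Marker genes of medium spiny neurons, the principal cells of the striatum, were abundant in each library, with a summed value between 123534 and 172888 in TG mice and between 149108 and 171967 in WT mice. Of these 10 genes 8 were lower and 2 higher in TG mice, with a median log2 fold change of -0.13. Cortical excitatory markers summed to between 28224 and 40023 in TG mice and between 32797 and 37568 in WT mice, with TG replicate 2 lowest. Choroid plexus markers summed to 15470, 1892 and 636 in TG replicates 1, 2 and 3, against 549 to 902 in WT mice. All 9 choroid plexus markers tested were higher in TG mice on average, with a median log2 fold change of 1.30. Among them Slc4a5 and Tmem72, named after their values were seen, had WT means of 9.29 and 2.49. They reached the mean of 10 required for testing only through the TG mice, so their direction is no separate result. The median is the value of Slc4a5. In 3 of the 9, Tmem72 included, each TG value was above each WT value, beside 5.06% of all genes tested. Of the 10 marker lists, the summed values of 8 overlapped between the genotypes, those of the microglia list were lower in each TG mouse (9866 to 10746 against 10803 to 11196), and those of the brainstem and spinal cord list were higher (3.43 to 4.50 against 0 to 2.29) at a few reads per library. Of that last list 5 of the 9 markers were listed at 0 in every library. The part of these tissue differences in the results below was not tested.

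The order of the genes was compared on the scale of normalized read counts per kb of merged exons, and the values in this paragraph are levels on that scale. Glrb had the highest level, 1293 ± 29.6 (SD, n = 3) in WT and 1370 ± 40.2 (SD, n = 3) in TG mice. Gphn followed with 721 ± 19.95 (SD, n = 3) in WT and 760 ± 7.83 (SD, n = 3) in TG mice, and Glra2 with 145 ± 6.66 (SD, n = 3) in WT and 177 ± 2.35 (SD, n = 3) in TG mice. These 3 genes were separated from each other in all 6 libraries. The other alpha subunits lay far below, with means over the 6 libraries of 7.11 for Glra3, 4.45 for Glra4 and 3.59 for Glra1, and their ranges over the libraries overlapped, so that no order among them is given. Among the genes tested, 94.5% had a lower mean level than Glrb, 88.9% a lower one than Gphn, 56.7% a lower one than Glra2 and 6.29% a lower one than Glra3.

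**Figure D1:**
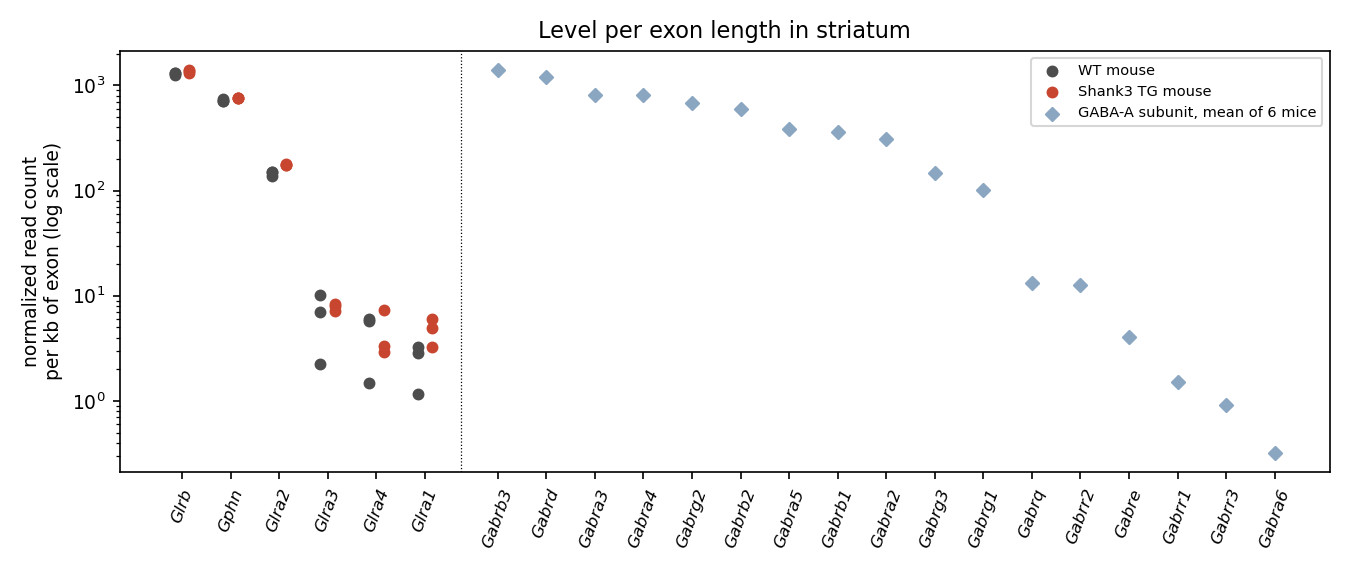
Levels of the 6 genes and, to the right of the dotted line, of the GABA-A receptor subunits shown, in normalized read counts per kb of merged exon on a log axis. For the 6 genes each circle is a mouse, for the GABA-A subunits each diamond is the mean of 6 mice, and Gabrp, listed at 0 in every library, is not drawn. Glrb and Gphn stand among the abundant GABA-A subunits, Glra2 near Gabrg3, and the other alpha subunits at or below 10.1.

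Glra2 thus made up most of the alpha subunit RNA in each mouse. Per kb, its share of the summed alpha subunits was 89.7%, 91.0% and 93.0% in TG replicates 1, 2 and 3 and 93.2%, 89.6% and 92.1% in WT replicates 1, 2 and 3. The share of Glra3 was between 3.75% and 4.20% in TG mice, whereas the WT mice had 1.40%, 6.06% and 4.73%. Glrb exceeded the sum of the alpha subunits in all mice, 7.05-, 6.71- and 7.43-fold in the TG mice compared with 8.26-, 7.84- and 8.46-fold in the WT mice. The lower ratio in TG mice follows from the Glra2 values on which the set was chosen and is no separate result. Gphn had between 0.535 and 0.579 times the level of Glrb, with overlap between the genotypes. In bulk tissue, fewer cells of a type and less RNA per cell cannot be told apart.

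Whether these genes differed between Shank3 TG and WT striatum was examined with limma on log2(normalized read count + 1) over the 17605 genes whose mean normalized read count was 10 or more. Of the 6 genes, 4 passed this filter, and Glra1 and Glra4 did not. At an adjusted P value under 0.05, 1 gene (0.00568% of those tested), Shank3, was called, and 0 of the 4 genes of the set were called by limma, by edgeR's quasi-likelihood test, by limma-voom or by DESeq2, which called 7 genes (0.0398%). An unadjusted limma P value under 0.05 was found for 4.31% of the genes tested and for 0 of Glra3, Glrb and Gphn, while Glra2 is not read against a threshold, since the set was chosen on it. In 3 of the 4 genes of the set that passed the filter each TG value was above each WT value, which was so in 5.06% of all genes tested. One of these is Glra2 by choice, and the others are Glrb and Gphn. Without TG replicate 1, the library with the highest choroid plexus markers, the count was 3, beside 12.6% of all genes. Leaving out a mouse cannot lower this count, so its staying at 3 is no separate result.

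**Figure D2:**
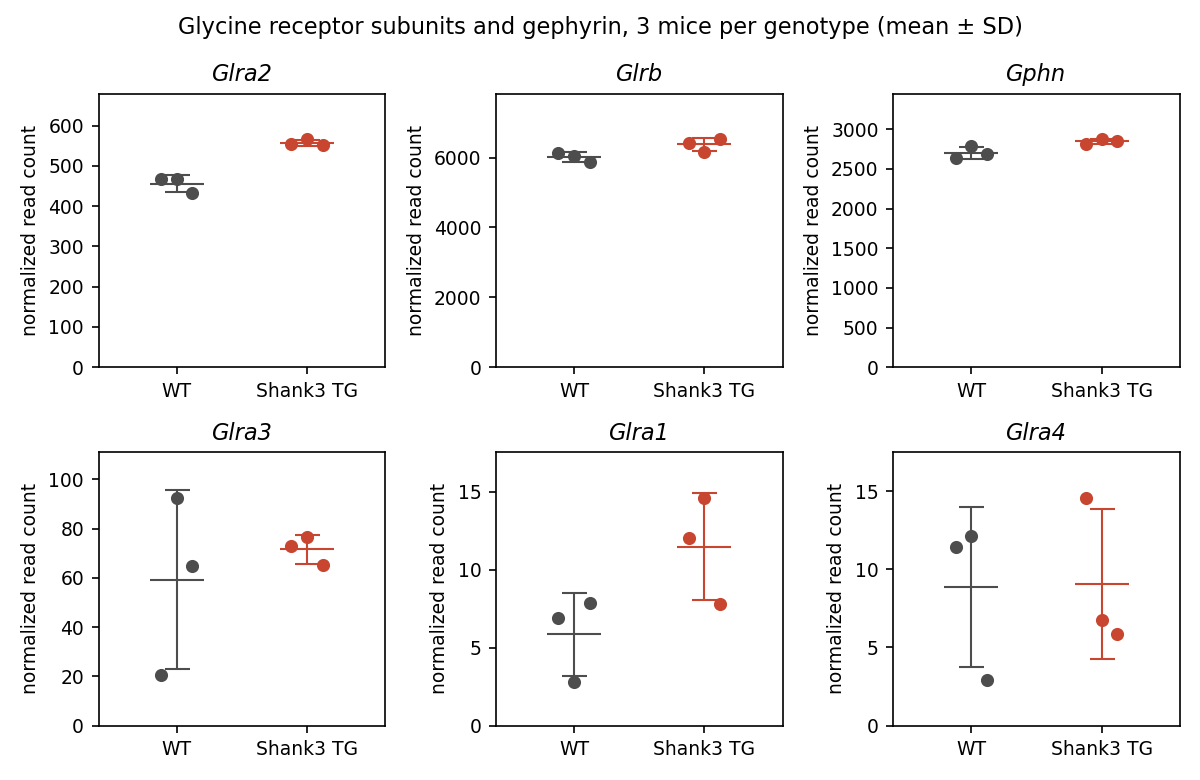
Normalized read counts of the 6 genes in each mouse, with the group mean (bar) and SD (whiskers, n = 3), on axes that start at 0. The TG and WT points do not overlap for Glra2, Glrb and Gphn and overlap for Glra3, Glra1 and Glra4.

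Glra2 (ENSMUSG00000018589) lies on the minus strand of chromosome X (GRCm38, 165129017 to 165327393), and its exons share no bases with another annotated gene. It had 554, 566 and 553 normalized read counts in TG replicates 1, 2 and 3 and 468, 469 and 432 in WT replicates 1, 2 and 3, from 646, 504, 568, 409, 501 and 440 recovered counts. The TG mice lay close together, and the gap from the lowest TG value to the highest WT value was wider than the range within either genotype. The group means were 558 ± 7.41 (SD, n = 3) and 456 ± 21.0 (SD, n = 3), 22.3% higher in TG mice, or by 0.29 on the log2 scale (SE 0.07). The SD was 1.33% of the mean in TG mice and 4.60% in WT mice, whereas counting error alone, from the square root of the counts, gives 4.20% and 4.73%. The 3 TG mice were therefore closer to each other than counting error alone would give on average. Leaving out any 1 mouse gave values between 0.25 and 0.31.

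Glrb (ENSMUSG00000028020; chromosome 3, 80843599 to 80913660, minus strand) had 6432, 6168 and 6531 normalized read counts in the TG mice, against 6131, 6056 and 5864 in the WT mice. The groups did not overlap, but TG replicate 2 and WT replicate 1 differed by less than either group's SD. The means were 6377 ± 187 (SD, n = 3) and 6017 ± 138 (SD, n = 3), which is 5.99% higher in TG mice. The log2 fold change was 0.08 (SE 0.04, 95% interval -0.02 to 0.18, limma adjusted P = 0.971). An exact two-sided permutation of the mice gave P = 0.1, the smallest that 3 mice against 3 allow. Of the 1142 genes within 1.5-fold of its mean value, 80.2% had a smaller log2 fold change in size.

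Gphn (ENSMUSG00000047454; chromosome 12, 78226379 to 78684772, plus strand) had 2817, 2875 and 2853 normalized read counts in the TG mice, whereas the WT mice had 2641, 2787 and 2684. TG replicate 1 was the lowest TG value and WT replicate 2 the highest WT value, and these lay close together without overlap. The means were 2848 ± 29.4 (SD, n = 3) and 2704 ± 74.8 (SD, n = 3), 5.33% higher in TG mice. The log2 fold change was 0.08 (SE 0.04, 95% interval -0.02 to 0.17, limma adjusted P = 0.971), and an exact two-sided permutation of the mice gave P = 0.1, again the smallest possible. Of the 2322 genes within 1.5-fold of its mean value, 75.6% had a smaller log2 fold change in size. It shares 147 exon bases with Gm48226, a long noncoding RNA on the opposite strand that is not analysed here, and whether counting used the strand is not given in the sources used here.

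Glra3 (ENSMUSG00000038257; chromosome 8, 55940460 to 56130070, plus strand) encodes a further alpha subunit. It had 72.9, 76.4 and 65.2 normalized read counts in the TG mice, against 20.6, 92.6 and 64.8 in the WT mice. The highest and the lowest value were both from WT mice, and WT replicate 1, with 18 recovered counts, stood apart from the 5 other libraries, which had 66 to 99. The means were 71.5 ± 5.72 (SD, n = 3) and 59.3 ± 36.3 (SD, n = 3). The log2 fold change of 0.50 (SE 0.42, 95% interval -0.43 to 1.44, limma adjusted P = 0.971, exact permutation P = 0.7) became -0.12 without WT replicate 1, so that its sign rests on this library.

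Glra1 and Glra4 were at the edge of detection, with 52 and 55 recovered counts over all 6 libraries. Glra1 (ENSMUSG00000000263; chromosome 11, 55514238 to 55608198, minus strand), the alpha subunit of adult spinal glycine receptors, had 12.0, 14.6 and 7.79 normalized read counts in the TG mice, whereas the WT mice had 6.87, 2.81 and 7.85. TG replicate 3 overlapped with the WT mice (two-sided exact permutation test on the log2 scale, P = 0.2). Glra4 (ENSMUSG00000018595; chromosome X, 136757674 to 136780141, minus strand) had 14.6, 6.74 and 5.84 normalized read counts in the TG mice, against 11.4, 12.2 and 2.95 in the WT mice, with the ranges interleaved (exact permutation P = 0.8). The spread of Glra1 within the genotypes, 30.0% of the mean in TG and 45.8% in WT mice, was close to the 30.2% and 45.6% that counting error gives, and the means, 11.5 ± 3.44 (SD, n = 3) in TG and 5.84 ± 2.68 (SD, n = 3) in WT mice, rest on 3 to 14 recovered counts per library. Glra1 shares 141 exon bases with the antisense gene Gm12236, which had a mean of 0.19 normalized read counts.

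**Figure D3:**
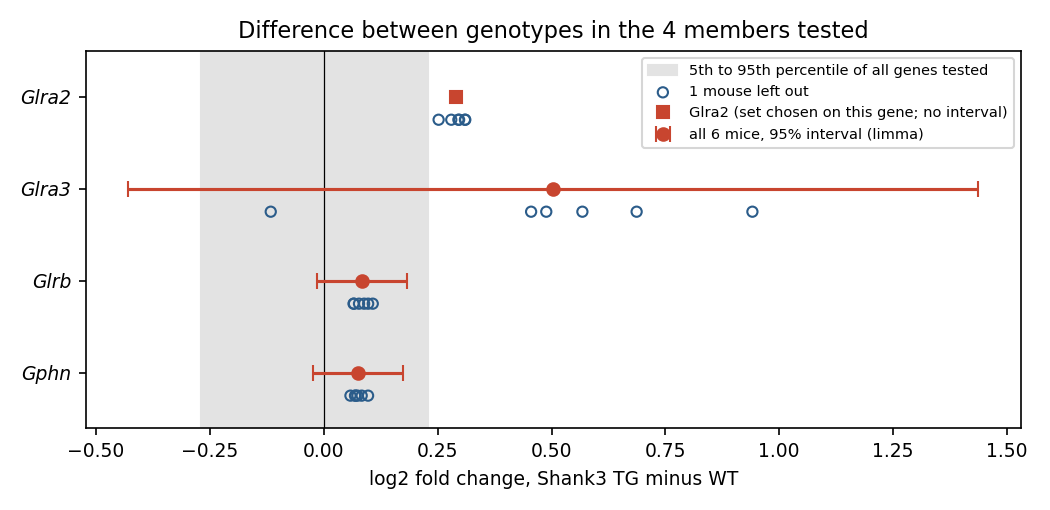
Log2 fold changes between Shank3 TG and WT mice for the 4 genes tested. Filled circles show the value from all 6 mice with the 95% interval of limma, the square shows Glra2 without an interval, open circles show the values with 1 mouse left out, and the grey band spans the 5th to the 95th percentile of all genes tested (-0.27 to 0.23). Glra2 stays between 0.25 and 0.31, Glrb and Gphn lie within the band, and Glra3 ranges from -0.12 to 0.94.

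The genes on either side of Glra2 were read to see whether the values of the region moved together. On the side of the lower coordinates, the nearest genes tested were Fancb, a DNA repair gene 132 kb away, Mospd2, 149 kb away, and Asb11, 670 kb away. Their log2 fold changes were -0.05 (SE 0.15), 0.01 (SE 0.09) and 0.13 (SE 0.11). On the other side were Gemin8, a component of the SMN complex 843 kb away, Gpm6b, a membrane proteolipid gene 912 kb away, and Ofd1, a centriole gene 1063 kb away, with log2 fold changes of -0.02 (SE 0.09), 0.01 (SE 0.05) and 0.09 (SE 0.08). The adjusted P values by limma were between 0.971 and 0.995. In none of the 6 were the TG values separated from the WT values, beside 10.1% of all genes tested in either direction. Over the 596 genes tested on chromosome X the median log2 fold change was 0.03, and 11.7% had each TG value above each WT value, beside -0.0018 and 5.06% over all genes tested. Whether the genes on X differ from the others was not tested.

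**Figure D4:**
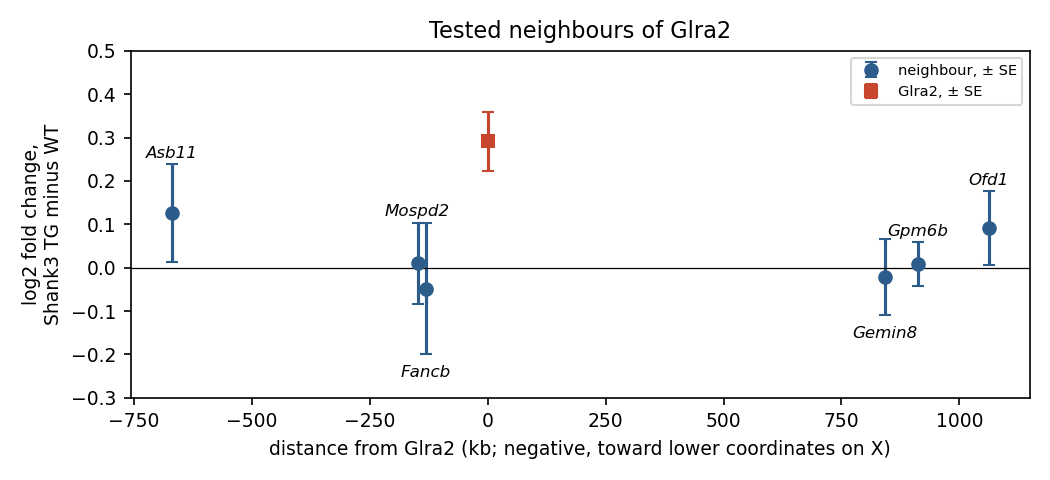
Log2 fold change with its standard error for Glra2 (square) and for the 3 nearest genes tested on each side (circles) against the distance from Glra2 in kb. The neighbours lie between -0.05 and 0.13, below the 0.29 of Glra2.

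The genes whose pattern over the 6 libraries was most like that of Glra2 were sought among the 12831 other genes whose mean reached 100, by Pearson's r of the log2 values. These 6 points share the libraries and the separation of the genotypes on which Glra2 was chosen, so the ranking is a description. The 5 highest were Gm6863 (r = 0.997), Lsamp (r = 0.996), which encodes a neuronal adhesion protein, Thsd7b (r = 0.987), Kdm1a (r = 0.985), which encodes a histone demethylase, and Tmem33 (r = 0.981). Lsamp had 7908, 7988 and 7838 normalized read counts in the TG mice, whereas the WT mice had 7437, 7429 and 7215, so that it shared the order of the groups and the low value of WT replicate 3 at a smaller log2 fold change of 0.10. Thsd7b had a log2 fold change of 0.38, and Kdm1a one of 0.05. Glrb and Gphn were at places 314 (r = 0.829) and 248 (r = 0.849) of the 12831.

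The genes around the inhibitory synapse were compared in 5 lists of 74 genes, all of them matched, of which 68 were tested. By limma 0 of the 68 were called, and 4 higher and 2 lower genes passed an unadjusted P value of 0.05, beside 4.31% of all genes tested. Leaving out 1 mouse moved the first count to between 2 (without WT replicate 3) and 7 (without WT replicate 2) higher genes, and it gave 1 lower gene when TG replicate 2 was left out, or 4 for TG replicate 1 or WT replicate 1. The count over all genes, 758, was then between 502 and 1327. With the replicate block 9 were higher and 3 lower, beside 1024 of the 17605 genes tested in either direction. The count called was 0 also by edgeR, DESeq2 and limma-voom. Each TG value was above each WT value in 1 gene (Dld) and below it in 5 (Lhfpl4, Slc6a6, Phgdh, Mocs1 and Aox1), beside 5.06% and 5.05% of all genes tested. Dld, Lhfpl4 and Mocs1 were named after their values were seen. The median log2 fold change was 0.01, and that of all genes tested was -0.0018.

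Among the proteins that anchor or move receptors at the inhibitory postsynapse, 6 of 21 were higher in TG mice and 15 lower, with a median log2 fold change of -0.03. The values ran from -0.11 (SE 0.05) for Insyn1, an inhibitory synaptic scaffold factor, to 0.16 (SE 0.12) for Insyn2a, another such factor. Kif5c, a kinesin motor and the gene with the most reads of the list, had 32724 ± 1936 (SD, n = 3) normalized read counts in TG and 33719 ± 531 (SD, n = 3) in WT mice. Of the 10 tested genes for glycine and GABA transport and chloride balance, 3 were higher and 7 lower, with a median of -0.03. The lowest was Slc6a6, the taurine transporter, with 6180, 6729 and 6328 normalized read counts in the TG mice, whereas the WT mice had 6997, 7170 and 7255, without overlap (log2 fold change -0.16, SE 0.05, limma adjusted P = 0.971). Slc6a11, a GABA transporter, was the highest at 0.11 (SE 0.09). Slc12a5, the potassium chloride cotransporter that keeps chloride low in mature neurons, had the most reads, with 21045 ± 433 (SD, n = 3) in TG mice, against 21433 ± 494 (SD, n = 3) in WT mice. Slc6a5, the transporter of glycine-releasing neurons, named here after its values were seen, had between 0 and 3.93 normalized read counts per library.

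The list for glycine metabolism also holds Gad1 and Gad2, the genes of GABA synthesis. Of its 14 genes 8 were higher and 6 lower, with a median log2 fold change of 0.02. Gnmt, a glycine methyltransferase, was the highest at 0.22 (SE 0.27), and Phgdh, which opens serine synthesis, the lowest at -0.09 (SE 0.05). Gad1, which makes GABA, had the most reads, with 14891 ± 853 (SD, n = 3) in TG and 13824 ± 754 (SD, n = 3) in WT mice. For the molybdenum cofactor, the product of the other activity of gephyrin, 8 genes for its synthesis and its enzymes were tested, with 4 higher, 4 lower and a median of 0.01. They ran from Aox1, an aldehyde oxidase, at -0.26 (SE 0.10) to Xdh, xanthine dehydrogenase, at 0.35 (SE 0.18), and Marc2 had the most reads, with 1162 ± 11.5 (SD, n = 3) in TG and 1167 ± 42.7 (SD, n = 3) in WT mice.

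GABA-A receptor subunits belong to the same channel family and share gephyrin. Of the 15 tested, 14 were higher in TG mice and 1, Gabrd, was lower at -0.10 (SE 0.07). Over all genes tested, 8669 of 17605 were higher. An unadjusted limma P value under 0.05 was found for 3 of the 15 subunits, all higher, beside 4.31% of all genes tested. The median log2 fold change of the 15 subunits was 0.13. Leaving out any 1 mouse left 13 or 14 of them higher, and the median was then between 0.07, without WT replicate 1, and 0.16. None had TG values separated from WT values, beside 10.1% of all genes tested in either direction. The summed values of all 19 subunits were between 49031 and 51030 in TG mice and between 46333 and 49066 in WT mice, with overlap. Gabre, at 24.2 ± 8.74 (SD, n = 3) against 13.9 ± 6.87 (SD, n = 3) normalized read counts, had the highest log2 fold change, 0.79 (SE 0.37), and Gabrp was listed at 0 in every library.

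**Figure D5:**
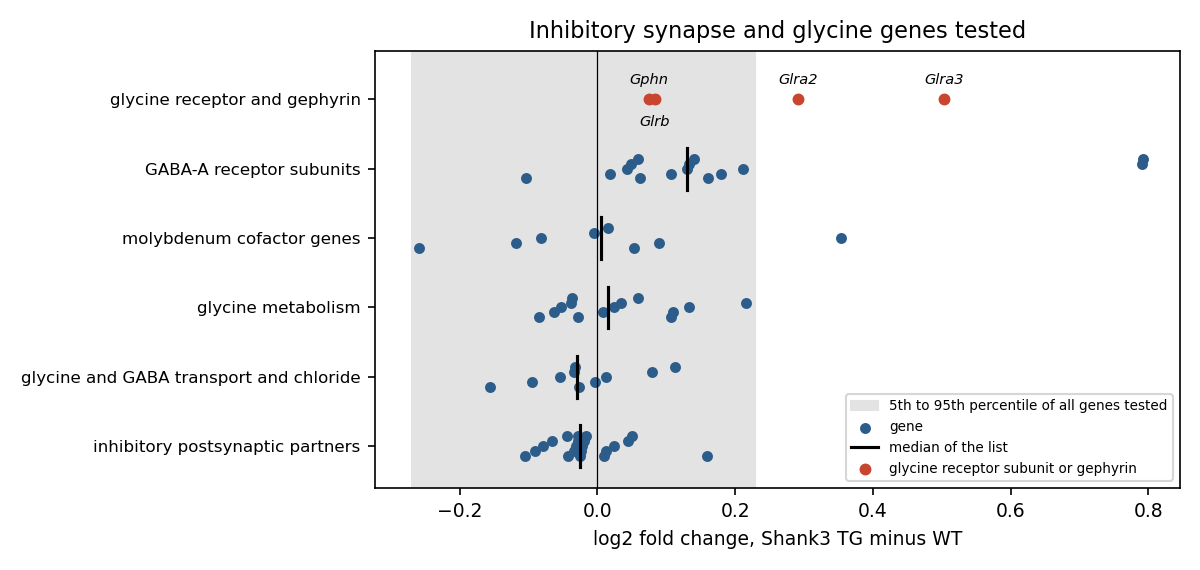
Log2 fold change, TG minus WT, of each gene tested in the 5 lists (blue, with the median of the list as a black bar) and of the 4 genes of the set (red). The grey band spans the 5th to the 95th percentile of all genes tested. The medians of the lists lie between -0.03 and 0.13. Glra2 and Glra3 lie outside the band, as do some genes of the lists, among them Gabre at 0.79 and Xdh at 0.35.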

How the data were processed

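Striatal RNA of 3 WT and 3 Shank3 TG mice was sequenced. Per the labels and the methods of the study, the authors trimmed the reads (Trimmomatic 0.35), used TopHat2 2.1.0 for alignment to GRCm38 and HTSeq for counting, and deposited a signal per gene, namely the normalized count after DESeq2 size factor scaling. The strand setting and annotation release are not given in the sources used here. Before adjustment the authors corrected their DESeq2 P values with an estimated null distribution (fdrtool). That step was not taken here, so the counts of genes called here are not those of the study. Counts were recovered from the deposited signal by dividing by the smallest value above 0 of each library (100% of values within 0.01 of a whole number). A count can stand for a read pair.

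The main test was limma 3.58.1 (R 4.3.3; trended prior variance) on log2(value + 1) for the 17605 genes whose mean reached 10, adjusted after Benjamini and Hochberg over all of them. On the recovered counts edgeR 4.0.16 and limma-voom called 1 gene, and DESeq2 1.42.0 called 7. All were tested on simulated data. Exact permutation tests used scipy 1.17.1. Exons were merged over GENCODE M21, which holds 45143 of the identifiers. The members and the gene lists (5 lists of inhibitory synapse genes, 10 marker lists of striatal neurons, interneurons, cortex, thalamus, brainstem, choroid plexus, astrocytes, oligodendrocytes, microglia and endothelial cells) were chosen with earlier results of these data known. Besides the members and Shank3, genes were named as the highest, the lowest and the one with the most reads of each list, as 3 neighbours on each side of Glra2 and as the 5 most like it. A gene that this rule would name is not reported here. No library was left out. P values measure the spread between mice. Alternatives were other tests, scalings, filters and pseudocounts, each mouse left out, and the replicate number as a block.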

Additional observations from a re-analysis of the deposited data

How the results depend on the processing

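By limma 1 gene was called. The count was 7 with DESeq2 and 5 without a filter on low counts, and between 1 and 2 with 1 mouse left out. It was 1 under each other setting (edgeR, limma-voom, TMM scaling, library totals, a stricter mean of 50, a pseudocount of 0.5 or 5, and the replicate block). Of the glycine receptor and gephyrin genes other than Glra2, and of the 5 lists, 0 were called under any of these 16 settings. The log2 fold changes kept their sign under all 16 for Glra2 (0.25 to 0.31), Glrb (0.07 to 0.11) and Gphn (0.06 to 0.10). Since the TG and WT values of these genes do not overlap, leaving out a mouse could not reverse the sign. For Glra2 these are also the values on which the set was chosen. The log2 fold change of Glra3 was -0.12 without WT replicate 1, the opposite sign, and 0.94 without WT replicate 2. Tested members with each TG value above each WT value numbered 3, or 4 without WT replicate 2. Leaving out a mouse cannot lower this count, so it does not check the separation. This count and that of the GABA-A subunits were added after the data were seen. Without TG replicate 1, 12.6% of all genes had each TG value above each WT value, and the share without another mouse was not computed. The labels do not say whether mice with the same replicate number are a pair. The deviations of same-numbered mice from their group means correlated at 0.05, 0.02 and 0.09. Those of mice with different numbers correlated at -0.12 to 0.08. Such weak correlations, from 3 mice per group, cannot decide whether the numbers pair the mice. With the replicate block the unadjusted P value was under 0.05 in 1024 genes in place of 758. The depth limits Glra1 and Glra4, which had 3 to 17 recovered counts per library.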

Other observations

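Glra3 in WT replicate 1 was singled out after its values were seen. On the log2 scale it lay 1.61 below the lowest of the 5 other libraries. Over the 17605 genes tested, only 1 gene had a larger gap of that kind in WT replicate 1, and 11 genes had a gap above 1. In the same library Gphn also had its lowest value, but the gap was 0.02, and Glra2 and Glrb had theirs in WT replicate 3, with gaps of 0.12 and 0.05.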
